A study of Bos taurus with 8 samples.

Results

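The genes described here carry the signal of leukemia inhibitory factor (LIF) and interleukin 6 (IL6) through STAT3 in cattle cells. LIF, LIFR, IL6, IL6R, IL6ST, OSMR, JAK1, STAT3, STAT5A and SOCS3 were chosen by name for their role in this pathway, and their array probes were found through the RefSeq accession of each probe. Of the 10 genes, 9 were represented by a named probe, with 24 of the 43653 probes of the array, and IL6ST had none. There were 8 samples, each hybridised to its own Agilent bovine 1-colour array. The embryo-derived stem-like cells (eSLCs) came from HanWoo blastocysts of 3 origins with 2 lines each, in vitro produced (IVP-eSLCs, I2 at passage 35 and I9 at passage 30), nuclear transfer (NT-eSLCs from ear skin donor cells, line N2 at passage 36, line N7 at passage 30) and parthenogenetic (PA-eSLCs, P1 at passage 31 and P4 at passage 36). Bovine somatic cells (SCs) at passages 5 and 10 were the controls. All eSLCs grew on inactivated murine STO feeder cells in serum-free medium with inhibitors of MEK, FGFR and GSK3. Per the labels the SCs grew in another medium, DMEM with serum, and they were at lower passages. The study describes a feeder layer for the eSLCs only. Medium, feeder layer, passage and cell type therefore cannot be told apart. The labels do not say whether the 2 arrays of a condition came from separate animals, so the p-values measure the spread between these arrays.

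Cytokines of the IL6 family bind a receptor of their own (LIFR, IL6R or OSMR), which pairs with the shared chain IL6ST, also called gp130. The pair activates JAK kinases, which phosphorylate STAT3, and STAT3 enters the nucleus and turns on targets that include its own inhibitor SOCS3. In mouse embryonic stem cells LIF is added to the medium to keep the cells pluripotent through this route, while in the bovine conceptus the trophectoderm is a source of many cytokines.

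The eSLCs differed from the SCs at most levels of the pathway. The signal of IL6R, the ligand-binding receptor for IL6, was 13.6-fold higher in eSLCs, whereas STAT3, its upstream kinase JAK1, the oncostatin M receptor OSMR and STAT5A were lower. LIF and SOCS3 were brighter on all 6 eSLC arrays than on either SC array but did not pass the test, and the eSLC lines lay on both sides of the SCs for IL6. Signals are background-subtracted intensities on a scale on which the 75th percentile of each array is 1000, and values under 13.3 (the lowest signal well above background, taken on the array where that was highest) were raised to it before any difference was taken. A probe was called when its limma adjusted p (Benjamini-Hochberg over all 34427 probes tested) was under 0.05 and its difference at least 2-fold. By its brightest probe, 1 of the 9 members was called higher in eSLCs and 4 were called lower, against 19.4% of 10954 genes called higher and 15.4% called lower. Over all probes of the members, 19 were tested, 2 were called higher and 11 lower, where 17.0% of all tested probes were called higher and 16.4% lower. The eSLC and SC arrays did not overlap for 4 tested member probes with the eSLCs higher and for 12 with the eSLCs lower, compared with 29.7% and 24.9% of all tested probes.

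**Figure D1:**
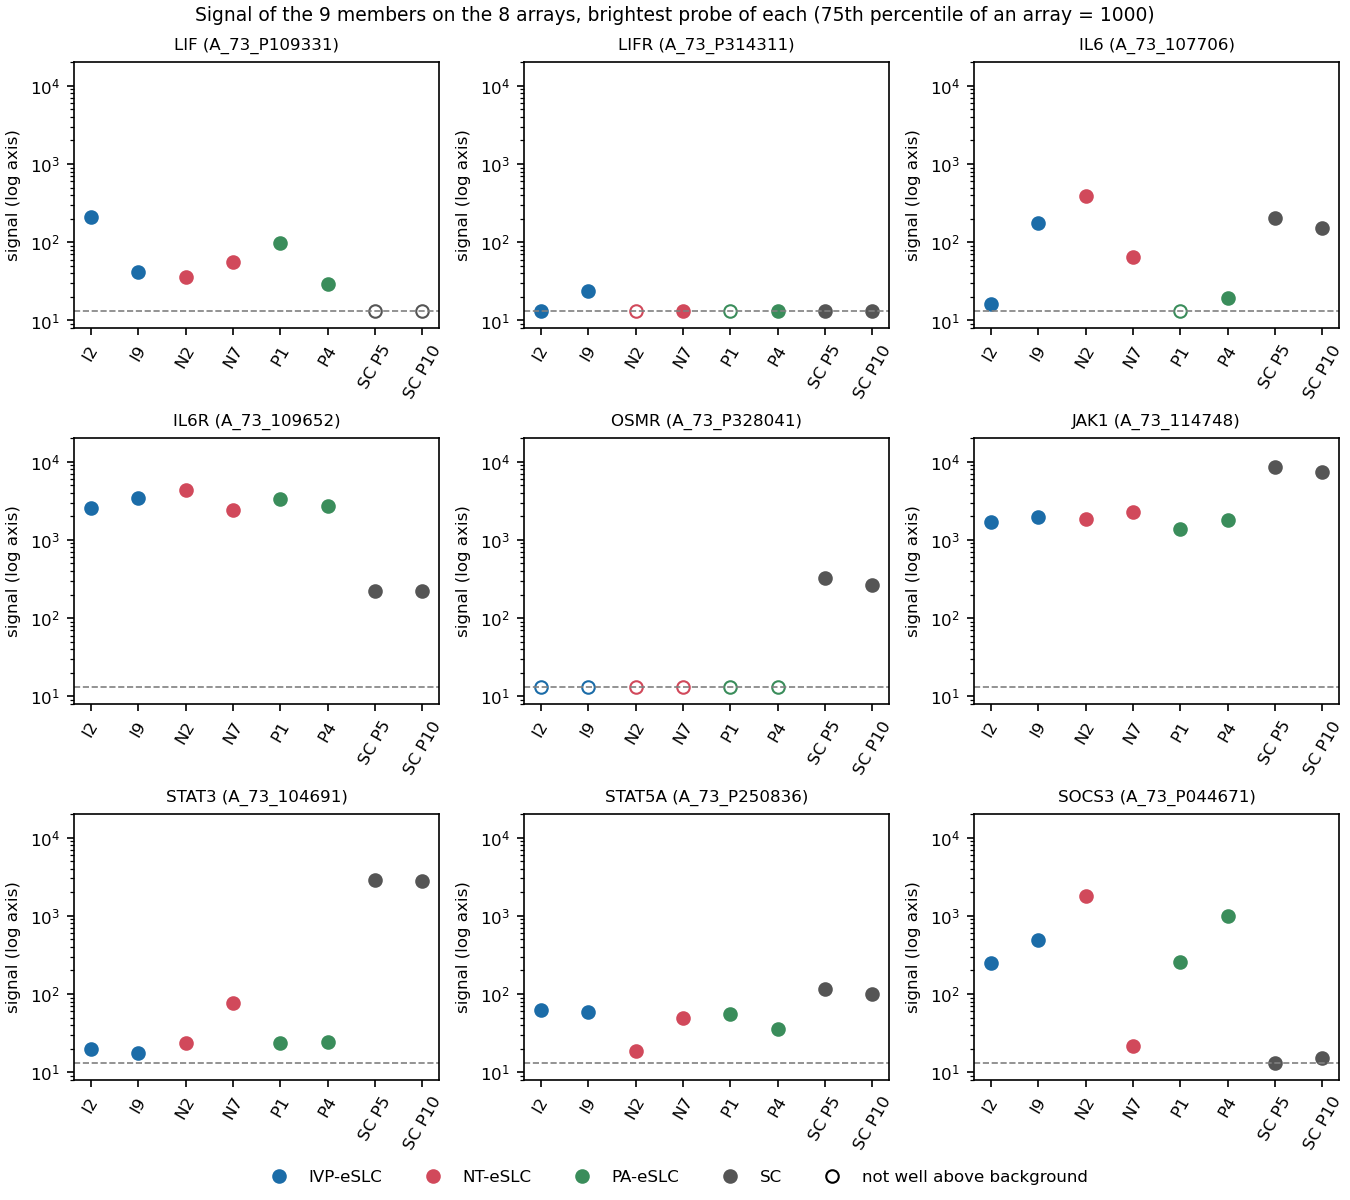
Signal of the brightest probe of each of the 9 members on the 8 arrays, on a log axis with the 75th percentile of an array at 1000. Each point is 1 array, open points were not well above background, and the dashed line is the floor of 13.3 to which lower values were raised. All 6 eSLC points lie above both SC points for LIF, IL6R and SOCS3, and below them for OSMR, JAK1, STAT3 and STAT5A.

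The arrays themselves were comparable. Between 71.2% and 76.7% of the spots of an array were well above background, no spot was saturated, and the 75th percentile lay between 1192 and 4092 scanner units. Of the trophectoderm markers tested, 14 of 16 were called higher in eSLCs, with a summed signal of 546655 to 1784056 on the eSLC arrays and 19383 to 19961 on the SC arrays. Of the fibroblast markers tested, 13 of 14 were called lower, with sums of 5759 to 11015 in eSLCs and 703357 to 849245 in SCs. Among the pluripotency markers, LIN28A, SALL4 and DNMT3B of 5 tested genes were called higher, while POU5F1 was 898 in N7 and 30.7 to 101 on the other eSLC arrays, with an eSLC minus SC difference of 2.05 log2 units (adjusted p = 0.183, limma). The part of cell type in the differences of the pathway genes was not tested. In these bulk samples, fewer expressing cells and less RNA per cell cannot be told apart.

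Among the ligands, LIF was represented by 2 probes. The probe A_73_P109331 gave signals of 211 in I2, 41.5 in I9, 35.9 in N2, 56.2 in N7, 98.2 in P1 and 29.3 in P4. It was not well above background in SCs, where the values were 3.47 and 6.31. The eSLC and SC arrays thus did not overlap, and the brightest line, I2, was at 7.21 times the dimmest, P4. The mean of the eSLCs was at least 4.59-fold higher than that of SCs, a difference of 2.20 ± 0.74 log2 units (SE, 6 against 2 arrays) that did not pass the test (limma adjusted p = 0.0576). Without I9 the difference was 2.59, and without I2 it was 1.81. Leaving out I9 makes I2, the brightest line, the only IVP-eSLC array and takes the spread between these lines out of the fit. Over all alternatives that adjust p, the adjusted p of LIF was under 0.05 only without I9, and its highest value was 0.964. By origin, LIF was 2.82 log2 units higher than SCs in IVP-eSLCs (adjusted p = 0.0587, limma), 1.76 in NT-eSLCs (adjusted p = 0.195) and 2.02 in PA-eSLCs (adjusted p = 0.131), and these 3 comparisons share the SC arrays. The other LIF probe, A_73_114692, was not well above background on any array.

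IL6, the other ligand among the members, differed widely between lines of 1 origin. With probe A_73_107706 its signal was 175 in I9 and 386 in N2, in the range of the SC signals of 206 and 152 or above them. N7 had 64.4, P4 19.1 and I2 16.3, and in P1 the value of 4.07 was not well above background. The eSLC arrays therefore lay on both sides of the SC arrays, with an SD of 2.01 log2 units over the 6 lines. Over all tested probes that were well above background on the 6 eSLC arrays, the median of this SD was 0.37 and the 99th percentile 1.79. The IL6 probe is not in that set, since its P1 value was not well above background and was raised to the floor. These percentiles therefore do not rank IL6 among probes that fall to background in some lines.

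The mean difference of IL6 between eSLCs and SCs was -1.79 ± 1.06 log2 units and was not called (limma adjusted p = 0.223). The probe A_73_P035016 had the same order of lines, with 302 in N2, 106 in I9, 34.7 in N7 and 18.1 in P4, and was not well above background in I2 and P1. It was 114 and 101 in SCs, a difference of -1.46 log2 units (limma adjusted p = 0.311). In PA-eSLCs, both arrays were below both SC arrays, by 3.47 log2 units for A_73_107706, which missed the threshold with adjusted p = 0.0847 (limma). It passed without I2 or without I9, with adjusted p = 0.0429 in each case, which changes the shared spread and not the PA-eSLC arrays themselves. The leukocyte markers did not all follow the order of IL6 among the lines. AIF1 and LCP1, which macrophages and other leukocytes express, were highest in N2 and I9, the 2 lines with the most IL6. AIF1 was 16252 in N2 and 11683 in I9 and 1844 to 3512 in the other lines, and LCP1 was 17610 and 9863 against 475 to 2396. The summed signal of the 8 leukocyte markers was 58655 in N2 and 53210 in I9, 19785 to 38274 in the other 4 lines, and 4878 to 6545 in SCs, with 5 of 7 tested markers called higher in eSLCs. PTPRC, the CD45 gene that defines leukocytes, was instead highest in P1, the line with the least IL6, at 27266 against 14957 in N2 and 14019 in I9, and CD68 was lowest in N2. All these values are of the brightest probe of a gene. The other tested PTPRC probe differed by 0.17 log2 units between eSLCs and SCs and was not called, so that a rise of PTPRC in eSLCs is uncertain. CD14 and LCP1 likewise had 1 of 2 tested probes called, with -0.009 and 1.97 for the other. Without AIF1 and LCP1, which were singled out after their values were seen, the sum of the other 6 markers was 34396 in P1, 31664 in I9, 24793 in N2 and 16474 to 24543 in the other lines. CSF1R, the defining receptor of macrophages, was not well above background on any eSLC array. The part of leukocytes in the IL6 signal was not tested.

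Of the other ligands of the family, oncostatin M, cardiotrophin 1 and IL27 had a probe, and none of the 3 was tested, since none was well above background on both arrays of any condition.

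Among the receptors, IL6R and OSMR moved in opposite directions. IL6R was measured by A_73_109652 at 2573 in I2, 3445 in I9, 4343 in N2, 2447 in N7, 3320 in P1 and 2683 in P4, and at 225 on both SC arrays. Every eSLC line was above the SCs, and the lines differed by 1.77-fold between the highest and the lowest. The difference was 3.77 ± 0.26 log2 units (limma adjusted p = 0.000257), with 3.73 in IVP-eSLCs, 3.86 in NT-eSLCs and 3.73 in PA-eSLCs. The second probe, A_73_P092326, ran from 124 to 256 in eSLCs and was 28.2 and 36.2 in SCs, 2.42 log2 units higher (limma adjusted p = 0.00109). Both IL6R probes were called in each of the 3 origins. With the values of the deposited normalized table, A_73_109652 was not called in IVP-eSLCs (2.05) or NT-eSLCs (1.86).

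OSMR, the receptor that joins gp130 to bind oncostatin M, was well above background only in SCs, at 330 and 265. None of the 6 eSLC arrays had a signal above 4.01 for its probe A_73_P328041. OSMR was at least 22.3-fold lower in eSLCs (limma adjusted p = 1.43e-05). All 6 eSLC values were raised to the floor, so no measured spread between eSLC arrays enters this p. LIFR, the receptor that binds LIF, lies next to OSMR in the cattle genome with no protein-coding gene between them, yet gave little signal in either cell type. Its probe A_73_P314311 was well above background on 4 of 6 eSLC arrays and both SC arrays, but only just. It was 24.1 in I9, 13.0 in I2, 10.9 in N7, 13.3 in P4, 13.2 at SC passage 5 and 10.3 at SC passage 10, and N2 and P1 were not well above background. The difference of 0.14 log2 units between eSLCs and SCs had a 95% interval from -0.45 to 0.73 (limma adjusted p = 0.647), on values mostly raised to the floor. The remaining 3 LIFR probes were not well above background on any array. IL11RA, the only other receptor of the list with a probe, did not pass the test, with a difference of 0.70 log2 units (limma adjusted p = 0.285).

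**Figure D2:**
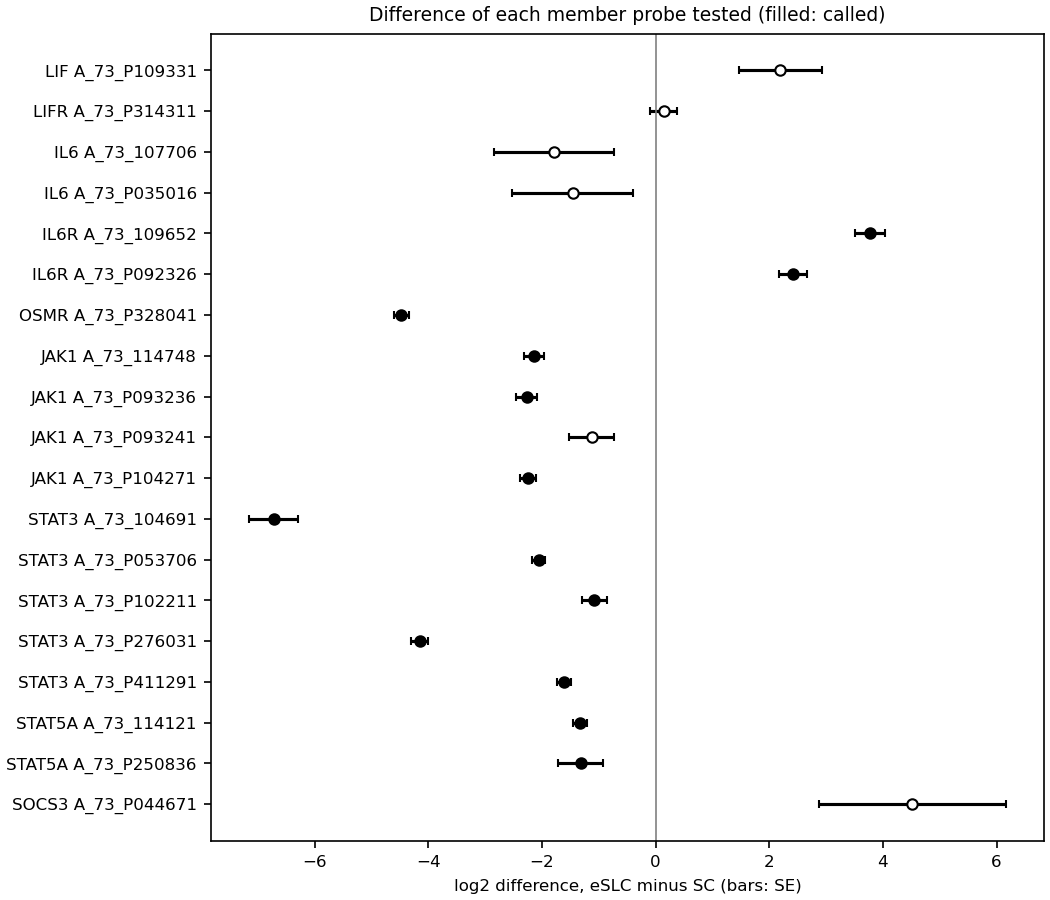
Log2 difference between eSLCs and SCs for the 19 tested probes of the members, with bars of 1 SE from limma over 8 arrays. Filled points were called. Both IL6R probes lie to the right of 0, all 5 STAT3 probes, both STAT5A probes and 3 of 4 JAK1 probes are called to the left of it, and SOCS3 has the widest bar, with an SE of 1.65.

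JAK1, the kinase that most receptors of the family share, was lower in eSLCs with each of its 4 probes. The brightest, A_73_114748, was 1679 in I2, 1938 in I9, 1839 in N2, 2280 in N7, 1366 in P1 and 1801 in P4, and 8449 and 7402 in SCs. The lines lay close together, at 1.67-fold between N7 and P1, and far below the SCs. The difference was -2.14 ± 0.18 log2 units (limma adjusted p = 0.000497), 4.40-fold. A_73_P093236 and A_73_P104271 gave -2.27 and -2.25, and both were called (limma adjusted p = 0.000432 and 0.000141). A_73_P093241 gave -1.13, with 187 to 478 in eSLCs and 798 and 703 in SCs, and was not called (limma adjusted p = 0.0672). TYK2, another kinase of the JAK family, was called higher by its brighter probe, at 13255 to 32614 in eSLCs and 5418 and 4192 in SCs (2.01 log2 units, limma adjusted p = 0.00313), but its other probe had a difference of -0.79 and was not called, so that the direction of TYK2 is uncertain.

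STAT3, the transcription factor of the pathway, had the largest difference of the 9 members. Its probe A_73_104691 was 19.9 in I2, 17.5 in I9, 23.7 in N2, 23.6 in P1 and 24.7 in P4, well above background but near the floor. In N7 it was 77.0, and in SCs it was 2853 and 2799. No eSLC array came near the SCs, and N7 stood apart from the other 5 lines. The difference of -6.72 ± 0.43 log2 units (limma adjusted p = 0.000191) corresponds to 106-fold, and was -7.24 in IVP-eSLCs, -6.05 in NT-eSLCs and -6.87 in PA-eSLCs. The other 4 STAT3 probes were also called lower, but were at or below the floor on all eSLC arrays. A_73_P276031 was 272 and 204 in SCs and differed by -4.15 log2 units, and A_73_P053706 was 55.9 and 54.9 in SCs and differed by -2.06. A_73_P411291 and A_73_P102211, with 38.3 to 43.0 and 21.2 to 37.0 in SCs, were at least 3.05-fold and at least 2.11-fold lower. Neither of these was called with another background correction, normexp (limma adjusted p = 0.0635 and 0.062). All 5 probes gave 1 direction. For the 4 probes at the floor the eSLC value was fixed, so that a lower SC signal gives a smaller difference there by construction. No measured spread between eSLC arrays enters the adjusted p of these 4 probes either.

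STAT5A and STAT5B lie directly beside STAT3 in the cattle genome, with no protein-coding gene between neighbours, and also were lower in eSLCs. STAT5A probe A_73_P250836 was 62.8 in I2, 59.4 in I9, 18.6 in N2, 49.9 in N7, 54.8 in P1 and 36.0 in P4, and 117 and 101 in SCs. All eSLC values were below the SCs, N2 furthest. The difference was -1.32 ± 0.40 log2 units and its limma adjusted p of 0.0416 was just under the threshold. It was not called under 13 of 21 alternatives that adjust p, among them the removal of any array other than N2 or N7, and its adjusted p over these alternatives ran from 0.00559 to 0.726. STAT5A was called in NT-eSLCs (-1.83, limma adjusted p = 0.0367), and not in IVP-eSLCs (-0.83, adjusted p = 0.235) or PA-eSLCs (-1.29, adjusted p = 0.0855). A second STAT5A probe, A_73_114121, was well above background only in SCs, at 35.8 and 31.1, and was at least 2.51-fold lower in eSLCs (limma adjusted p = 0.000672). All its eSLC values were raised to the floor, so this lower p holds no measured spread between eSLC arrays. The remaining probe was not well above background on any array.

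Most STAT genes examined were lower. The median difference of the 6 was -1.52 log2 units, against a median of 0.23 over all genes tested. Of the 6, 4 were called lower in eSLCs and none higher, against 15.4% and 19.4% of all genes tested. Besides STAT3 and STAT5A these were STAT5B (-4.28, limma adjusted p = 0.0281) and STAT2, a factor of the interferon response (-1.10, adjusted p = 0.0173). STAT5B was 237 in N7 and 5.87 to 54.1 in the other eSLC lines, and 550 and 668 in SCs, so that N7 was the highest eSLC line for STAT5B as for STAT3. STAT4 and STAT6 were not called.

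SOCS3, the feedback inhibitor and a classic STAT3 target, was brighter on every eSLC array than in SCs, opposite to STAT3. Its only probe, A_73_P044671, was 247 in I2, 495 in I9, 1804 in N2, 260 in P1 and 985 in P4, and 10.3 and 15.3 in SCs. N7 was the exception among the eSLCs with 21.6, still above both SC arrays but 83.6-fold below N2, the other NT-eSLC line. The SD over the 6 lines was 2.22 log2 units. The difference between eSLCs and SCs was 4.52 ± 1.65 log2 units and was not called (limma adjusted p = 0.0726). Without N7 it was 5.58 and was called (limma adjusted p = 0.00308), and without N2, which left N7 as the only NT-eSLC array with a spread assumed to be that of the other groups, it was 3.45 and was also called (adjusted p = 0.0123). Over all alternatives that adjust p, that of SOCS3 ran from 0.000342 to 0.296. In NT-eSLCs alone the difference from SCs was 3.79 log2 units, 6.98 without N7 and 0.60 without N2. It was 4.62 in IVP-eSLCs and 5.15 in PA-eSLCs, and none of the 3 was called (limma adjusted p = 0.13, 0.208 and 0.0947 for IVP-, NT- and PA-eSLCs).

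N7, with the lowest SOCS3 and the highest STAT3 and STAT5B of the eSLC lines, was also the line with the most signal for markers of the hypoblast, the extraembryonic endoderm of the blastocyst. HNF4A was 9022 in N7 and 8.17 to 23.4 in the other eSLC lines, GATA4 2918 against 23.1 to 180, and APOA1 112600 against 1097 to 6823. By the brightest probe of each gene, these 3 of the 5 hypoblast markers with a probe were highest in N7, while SOX17 and AFP were not. The AFP probe was at 15.5 to 26.7 on all arrays, SCs included. The brightest SOX17 probe differed by -0.34 log2 units between eSLCs and SCs and its other probe by 3.11, and neither was called. The summed signal of the 5 was 127220 in N7, most of it from APOA1, 3486 to 8854 in the other lines, and 7689 and 9170 in SCs. PDGFRA, which fibroblasts and hypoblast both express, was 1422 in N7 and 42.6 to 276 in the other eSLC lines. Of the pluripotency markers, POU5F1 (898), PRDM14 (21.6) and DPPA3 (15.8) were also highest in N7, while NANOG, LIN28A, SALL4 and DNMT3B were not. PRDM14 and DPPA3 were near the floor and well above background on no other array. Whether N7 held hypoblast or pluripotent cells, and what part such cells would have in its SOCS3 and STAT3 signals, was not tested.

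**Figure D3:**
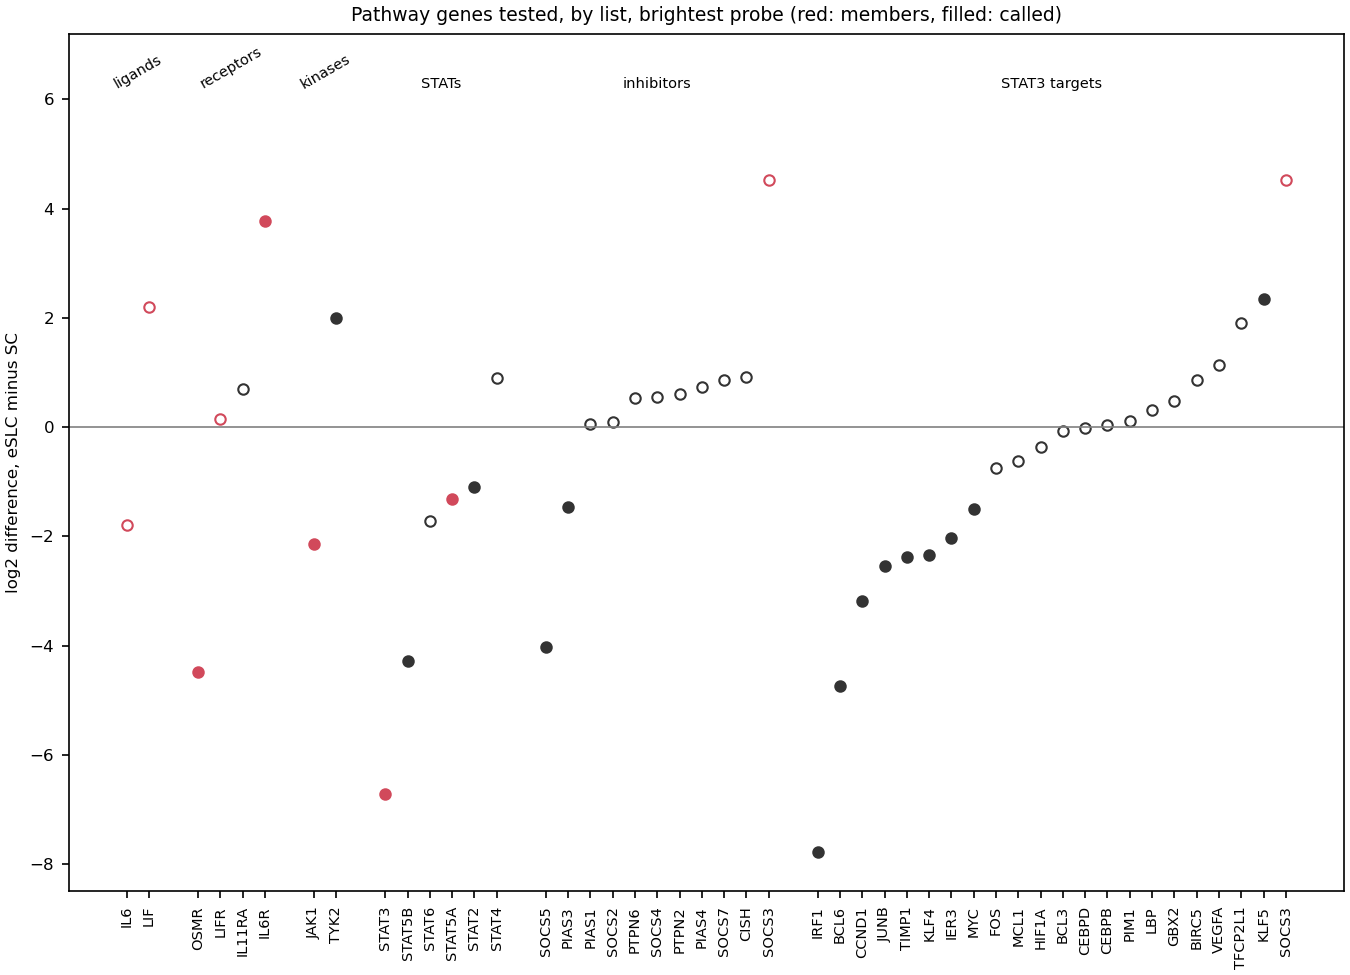
Log2 difference between eSLCs and SCs for each pathway gene tested, by its brightest probe and grouped by role, with the members in red and called genes filled. SOCS3 is drawn under the inhibitors and under the STAT3 targets. The STATs lie mostly below 0, with 4 of 6 called lower, the inhibitors are mostly not called, and the STAT3 targets run from IRF1 at -7.77 to SOCS3 at 4.52.

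The pathway lists held 53 genes that are not members. Of these, 40 had a probe and 37 were tested, with 2 called higher, 12 called lower and 23 not called. Over all genes tested, 19.4% were called higher and 15.4% lower, and the lists were chosen with earlier results of these data known. The median difference of the pathway genes that are not members was 0.03 log2 units. Among the inhibitors, SOCS3 included, 2 of 11 were called lower and none higher by their brightest probes. For PTPN6, 1 of 2 tested probes was called higher (1.75), but its brightest was not (0.53). SOCS5, a relative of SOCS3, was 152 to 378 in eSLCs and 3636 and 3758 in SCs (-4.03 log2 units, limma adjusted p = 0.000853), and PIAS3, which blocks DNA binding of STAT3, had a difference of -1.46 (adjusted p = 0.00324). CISH, an inhibitor in the same family, had 0.92 log2 units and adjusted p = 0.024 and PTPN2, a phosphatase that acts on JAK1 and STAT3, 0.60 and 0.0171, and both were short of 2-fold. SOCS2 had 0.09 (limma adjusted p = 0.855).

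Targets of STAT3 were tested for 22 genes. By the brightest probe, 8 of these were called lower in eSLCs and 1 higher, against 15.4% and 19.4% of all genes tested, and 13 were not called. For VEGFA, 1 of 3 tested probes was called higher, but its brightest was not (1.13). The transcription factors IRF1 (-7.77, limma adjusted p = 0.000309), BCL6 (-4.74, adjusted p = 4.39e-05), JUNB (-2.54, adjusted p = 0.000927) and KLF4 (-2.33, adjusted p = 0.00232) were lower, as were the cell cycle gene CCND1 (-3.18, adjusted p = 0.000137), TIMP1, an inhibitor of matrix proteases (-2.38, adjusted p = 0.00162), and the early response gene IER3 (-2.03, adjusted p = 0.00648). KLF5, which trophectoderm as well as pluripotent cells express, was the gene called higher, at 2221 to 5942 in eSLCs against 594 and 757 in SCs (2.34 log2 units, limma adjusted p = 0.00275). The survivin gene BIRC5 was 0.85 higher with adjusted p = 0.0183, short of 2-fold. TFCP2L1, through which LIF acts in mouse embryonic stem cells, was 12.4 to 126 in eSLCs and 4.03 and 10.2 in SCs and was not called (1.91, limma adjusted p = 0.157). Many of these genes respond to other signals as well, so the list is not specific to STAT3.

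Between origins, no member was called. Of all 34427 probes, 0% were called between NT- and IVP-eSLCs and 0% between PA- and IVP-eSLCs by limma, with 1040 and 2049 probes at an unadjusted p under 0.05. Of the 19 tested member probes, 1 and 0 had such a p. The 1 was JAK1 A_73_P104271, whose signal was 790 and 957 in the NT-eSLC lines and 581 and 612 in the IVP-eSLC lines (0.54 log2 units, limma adjusted p = 1). Against SCs, 1 member was called higher in each origin, IL6R, and 3, 4 and 3 members were called lower in IVP-, NT- and PA-eSLCs. The differing member was STAT5A. The shares of all probes called higher were 15.4%, 13.3% and 17.2% and those called lower 15.0%, 14.2% and 15.7% in the same order, and the 3 comparisons share the SC arrays.

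Each slide held 1 SC array and 3 eSLC arrays, which allowed the difference to be taken within each slide. Within the slide of I2, I9, N7 and SC passage 5, it was 2.57 log2 units for LIF, 3.63 for IL6R, -2.12 for JAK1, -6.58 for STAT3, -1.03 for STAT5A and 3.38 for SOCS3. Within the slide of N2, P1, P4 and SC passage 10, it was 1.82 for LIF, 3.91 for IL6R, -2.16 for JAK1, -6.87 for STAT3, -1.60 for STAT5A and 5.66 for SOCS3. IL6 had -1.85 and -1.72, and OSMR -4.64 and -4.32. The direction of these 8 members was the same on both slides, while SOCS3, with N7 on the first slide, differed most in size. Both IVP-eSLC arrays lay on the first slide and both PA-eSLC arrays on the second, so that their direct difference cannot tell origin from slide. With slide as a block, the SOCS3 difference from SCs was 6.26 log2 units in IVP-eSLCs and 3.50 in PA-eSLCs, against 4.62 and 5.15 without the block. The slide term came only from the NT-eSLC and SC pairs, so it cannot tell slide from the SOCS3 difference between N7 and N2.

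The pattern of each member over the 8 arrays was set against that of 10922 genes. The closest to IL6R were PAG11, PAG2 and MARVELD3 (Pearson r = 0.998 for each), of which the first pair are pregnancy-associated glycoproteins of the trophoblast. Closest to STAT3 were ELMO1 (r = 0.999), TGFBI and FBLN1 (r = 0.998 each), where FBLN1 and TGFBI encode matrix proteins of fibroblasts, and closest to JAK1 were RGL2, PHETA2 and SLC39A13 (r = 0.998, 0.998 and 0.997). IL6R, JAK1 and STAT3 had 669, 653 and 641 genes at r above 0.95. SOCS3 had 37, led by PIK3R2, CD9 and HNRNPA1 (r = 0.984, 0.982 and 0.980), LIF had 9, led by ARHGAP39, CCDC63 and GDE1 (r = 0.984, 0.977 and 0.975), and STAT5A had 3, HYKK, CHAD and FCER1G (r = 0.972, 0.966 and 0.958). These are descriptions over 8 arrays that share 2 cell types.

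The normalized table deposited with the arrays gave other values for some member probes. For 10170 probes, 6 of them of members, the processed signal in the scanner output of I2 and I9 was the table's value divided by 1 common factor, within 3%. In these probes the 2 SC arrays differed by a median of 0.000348 log2 units in the table and 0.235 in the background-subtracted signal. SOCS3 was 4686 in N7 in the table, near the 4808 of N2, where the background-subtracted signals were 21.6 and 1804. STAT3 A_73_104691 was 254 in N2 and 244 in N7 in the table, against 23.7 and 77.0. LIF A_73_114692, not well above background on any array, was listed at 1421 to 2387 in eSLCs and at 248 and 246 in SCs. For IL6R, the table gave the same value to both probes in I2 and in SC passage 5. With the table's values SOCS3 was called, at 5.80 log2 units (limma adjusted p = 0.000342), and the brightest probes of IL6R, JAK1, STAT3 and OSMR were called in all eSLCs against SCs.

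**Figure D4:**
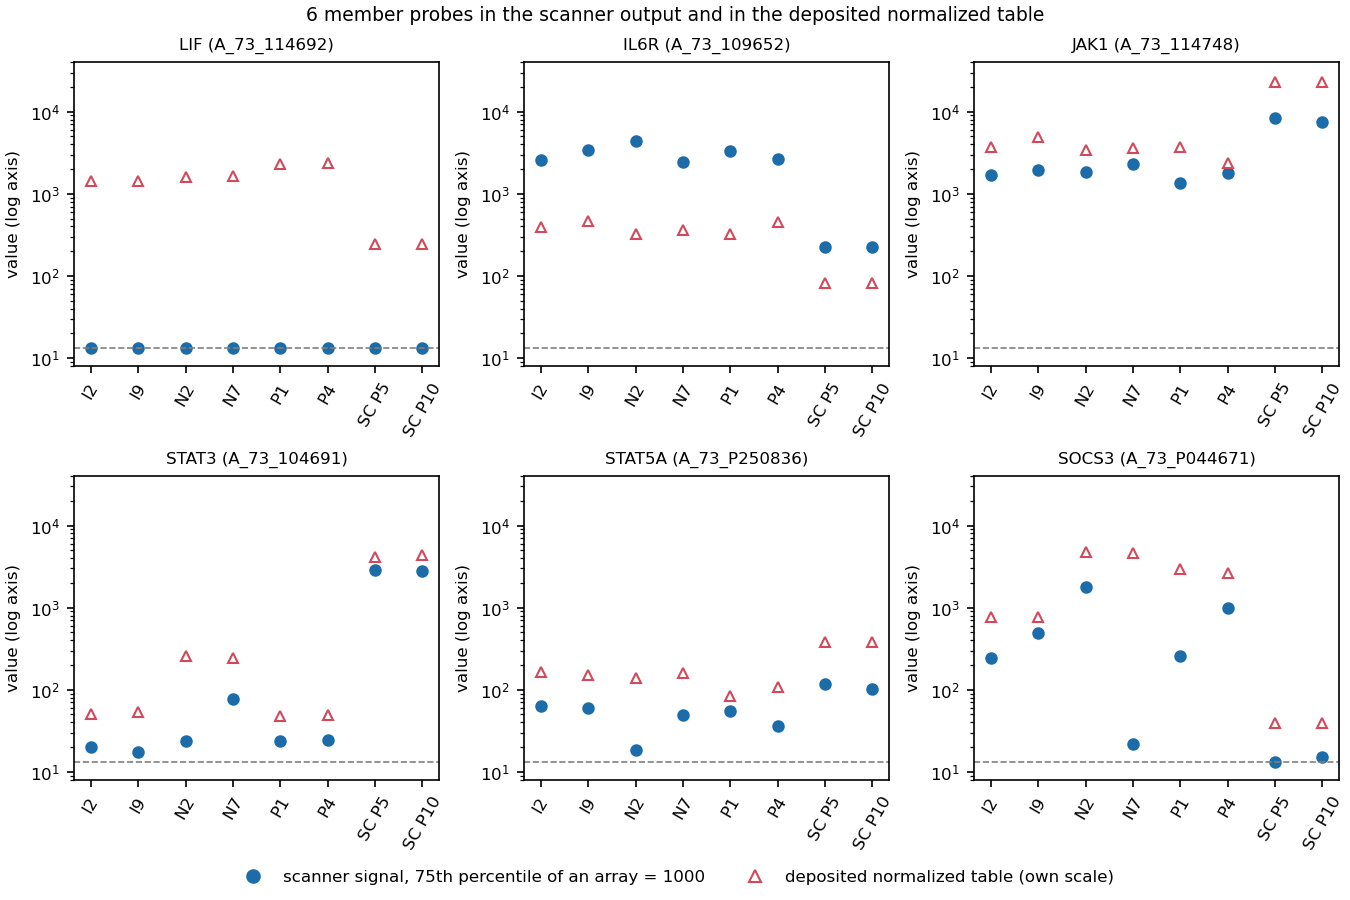
The 6 member probes that lie in the set of 10170 probes above, on the 8 arrays, with a log axis. Circles are the background-subtracted scanner signal with the 75th percentile of an array at 1000 and the dashed line is its floor of 13.3, and triangles are the table's values on their own scale. For SOCS3 the circle of N7 lies at 21.6 and its triangle at 4686, and for LIF A_73_114692 all circles lie at the floor.

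**Figure D5:**
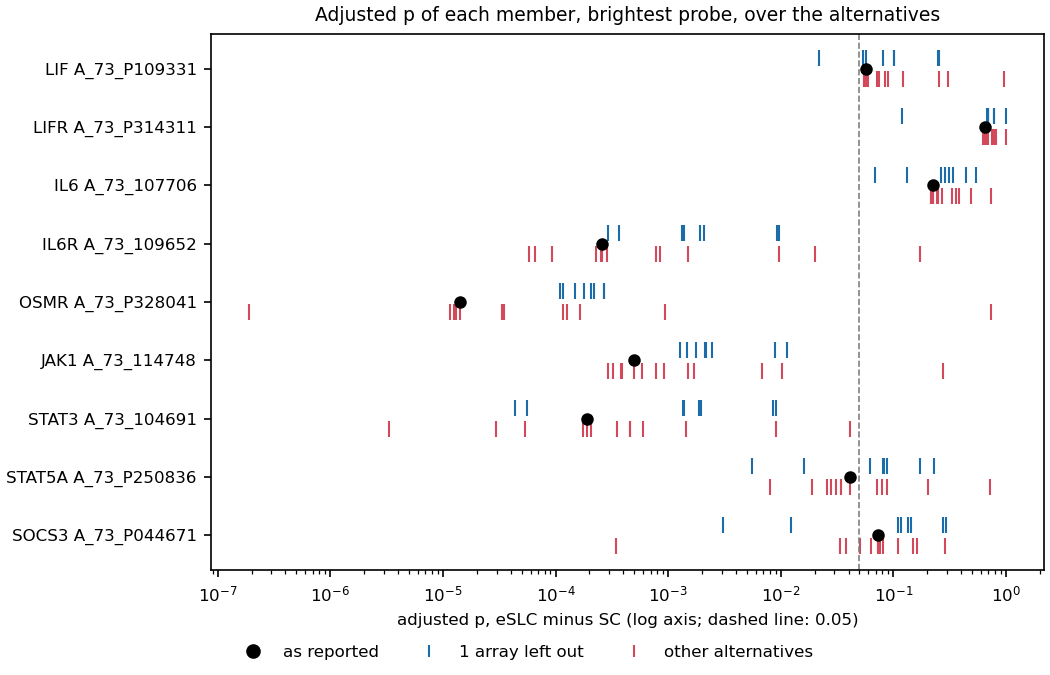
Adjusted p of the eSLC minus SC difference for the brightest probe of each member, on a log axis with a dashed line at 0.05. Black points are the values reported, blue ticks leave out 1 array, and red ticks are the other alternatives. LIF, STAT5A and SOCS3 have ticks on both sides of the line. IL6R, OSMR and JAK1 do as well, where only the tick of the processed signal lies to the right. STAT3 stays to the left of the line, with a highest value of 0.0412.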

How the data were processed

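RNA of 8 bovine samples was hybridised to Agilent bovine 1-colour arrays. For scanner output the authors used Feature Extraction version 11.5.1.1 (per the file headers, with probes placed on UMD 3.1) and for normalization GeneSpring GX. They deposited linear signal intensities per spot and a normalized table of linear intensities whose scale and centring are not given in the sources used here. The column medians of that table ran from 118.7 to 500.8.

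The background-subtracted signal was used, since in 6 files the processed signal did not follow it (rank correlation 0.16 to 0.22, 0.97 in I2 and N2), whereas the median signal minus background did in all 8 (0.998 to 0.999). Control and outlier spots were left out, 18 missing values remained, and none was in a member probe. Signals were divided by the 75th percentile of each array, raised to 13.3 and taken to log2. A probe was tested if both arrays of some condition were well above background. The test was limma's (3.58.1, in R 4.3.3) with lmFit and eBayes, 1 mean per condition and all 8 arrays. The eSLC mean is the mean of the 3 origin means. A lower bound on a fold sets the brighter group against this floor. Accessions were matched to the RefSeq table of ARS-UCD2.0, which named 26743 of 43653 probes for 12603 genes, and a gene of several probes is given by the one with the highest mean log2 signal. The builds differ, so no coordinates are given. The normexp alternative used the median signal, as the scanner files hold no mean signal. The fit was also tested on simulated data. Every probe of the members is given. List genes called between eSLCs and SCs could be named, and for each member well above background in all eSLCs the 3 genes with the highest Pearson r. One pathway gene is not reported here. Members and lists were chosen with earlier results of these data known. Plots were made in Python 3.11.15 with matplotlib 3.10.9.

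Alternatives were another scaling, filter, background correction, signal column, floor, set of arrays or test, slide as a block, SCs as 1 sample, and the removal of each array. With 2 arrays a condition, the number of arrays limits the precision, and no sequence of a probe or gene was used here.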

Additional observations from a re-analysis of the deposited data

Results flagged for a closer look

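STAT3 A_73_104691 was 77.0 in N7 and 17.5 to 24.7 in the other 5 eSLC lines. The gap between N7 and the nearest line, divided by the range of all 6 lines, was 0.767 on the log2 scale, above the critical value of Dixon's test at the 95% level for 6 samples. Of 10 member probes well above background on all 6 eSLC arrays, it was the only one to pass this limit, which chance passes in about 1 of 20 groups.

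LIF A_73_114692 was not well above background on any array and entered no comparison, yet the deposited normalized table lists it 2.84 log2 units higher in eSLCs than in SCs. The cause was not tested.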

How the results depend on the processing

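Between all eSLCs and SCs, the calls of IL6R and JAK1 by their brightest probes were lost only with the processed signal, and that of STAT3 was kept under each alternative. OSMR lost its call with the processed signal and was not tested with the filter on all 8 arrays, as it was not well above background in eSLCs. By origin, IL6R A_73_109652 was also not called with the normalized table in IVP- and NT-eSLCs (2.05 and 1.86) or with the methods' t-test after adjustment in NT-eSLCs. With slide as a block, no member changed its call between all eSLCs and SCs. With the processed signal, the number of members called lower in eSLCs was 1, and against SCs 0 members were called higher and 0 lower in IVP-, NT- and PA-eSLCs each. Under that signal the direction turned for LIF (-0.22, with -0.035 in IVP- and -1.66 in NT-eSLCs), LIFR (-1.60), IL6 (1.12 and 1.93, with 0.53 in PA-eSLCs), IL6R A_73_P092326 (-0.74), JAK1 A_73_P093236, A_73_P093241 and A_73_P104271 (1.40, 1.23 and 1.73, and -0.20 for the last between NT- and IVP-eSLCs) and STAT3 A_73_P276031 (0.11). That column did not follow the other columns of 6 files. With normexp, LIFR turned to -0.13, and the cause was not tested. Under normexp, STAT3 A_73_P102211 and A_73_P411291 and STAT5A A_73_114121 lost their calls (limma adjusted p = 0.062, 0.0635 and 0.0555). STAT5A A_73_P250836 fell short of 2-fold there (-0.82), while JAK1 A_73_P093241 was called (-1.05). Members called higher in eSLCs were 2 with the filter on all 8 arrays and with the normalized table (2 also in PA-eSLCs), and 3 with the methods' t-test before adjustment (2 in IVP-, NT- and PA-eSLCs each). With only the conditions compared in the fit, 2 were called higher in each origin and 5 lower in PA-eSLCs. The methods' t-test after Benjamini-Hochberg adjustment called 0 higher and 1 lower in NT-eSLCs. Leaving out 1 array at a time gave 1 to 2 members higher and 3 to 4 lower in eSLCs, 1 to 2 and 3 in IVP-eSLCs, 1 to 2 and 3 to 4 in NT- and in PA-eSLCs, 0 to 1 higher between NT- and IVP-eSLCs (1 without N2), and 0 otherwise. The second member called higher in eSLCs was LIF without I9 and SOCS3 without N2 or N7. No paired analysis was possible because the labels give every sample the same replicate number. STAT3 A_73_P102211 and A_73_P411291 and STAT5A A_73_114121 fell short of the call with a floor 2 times as high, as their SC signals lie near it. STAT3 A_73_P102211 was also not called with the normalized table (limma adjusted p = 0.0522), and fell short of 2-fold without SC passage 5 (-0.67).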
